A study of Homo sapiens with 36 samples.

Results

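The subunits of the respiratory chain and the ATP synthase were followed in EA.hy926 cells, a human line made by fusing an umbilical vein endothelial cell with a lung carcinoma cell, after exposure to the perfluoroalkyl acid PFOA. Members were chosen by gene symbol alone: the NDUFA, NDUFB, NDUFC, NDUFS and NDUFV genes, the 4 SDH genes, the UQCR genes with CYC1, the COX4 to COX8 genes, the ATP5F, ATP5M and ATP5P genes, and the 13 protein-coding genes of the mitochondrial genome. Of 101 matching names, 93 had a mean normalised read count of at least 10 and were kept, out of 47137 listed genes of which 18048 held values. COX6B2, ATP5MGL, COX8C, UQCRHL and COX4I2 lay under that mean, and COX6A2, COX7A1 and UQCRBP1 held no value. Of the 93 members, 80 are encoded in the nucleus (36 in complex I, 4 in complex II, 9 in complex III, 14 in complex IV, 17 in complex V) and 13 in the mitochondrion (7, none, 1, 3 and 2). All 93 passed the same filter in the tests at each time.

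The 36 libraries formed 12 groups of 3 biological replicates of wild-type cells, all in medium with HAT supplement. At 48 h cells had received 1, 10 or 100 µM PFOA, and at 6 and at 12 weeks 1, 10 or 100 nM. Each time had its own control in vehicle, 0.05% DMSO, which the exposed cells also received. Per the labels, short exposures were lysed in the dish, whereas long exposures came from continuously kept flasks. No group lacks DMSO or HAT, and the line is a single hybrid, so these values describe that line under those media.

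The respiratory chain passes electrons from NADH (complex I) or succinate (complex II) through ubiquinone, complex III and cytochrome c to oxygen at complex IV. Complexes I, III and IV pump protons across the inner mitochondrial membrane, and complex V, the ATP synthase, lets them return to make ATP. Nuclear genes for these subunits are transcribed one by one and their proteins imported. The mitochondrial genes are transcribed as long polycistronic RNAs that are then cut, and complex II is the only complex made wholly by the nucleus. Endothelial cells are known for making much of their ATP by glycolysis.

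Promoters of 4 nuclear members are shown because these genes had some of the largest differences after 6 weeks in either direction, as given further on. Each line gives the 250 bases before the RefSeq start site (GRCh38.p14), 5′ to 3′ on the strand of the gene. Capitals mark exact matches, on either strand, to an ETS core (CCGGAAG), an NRF1 site (GCGCA and GCGC with any 1 base between them) or an Sp1 box (GGGCGG). NDUFA13 and NDUFB7, complex I accessory subunits that were among the lowest against control, stand first at chr19:19515975-19516224 (plus strand) and chr19:14572067-14572316 (minus strand). COX7A2L, a supercomplex factor, at chr2:42361218-42361467 (minus strand, the first of 2 listed starts), and SDHD, a complex II anchor, at chr11:112086623-112086872 (plus strand) were among the few that were higher.
NDUFA13: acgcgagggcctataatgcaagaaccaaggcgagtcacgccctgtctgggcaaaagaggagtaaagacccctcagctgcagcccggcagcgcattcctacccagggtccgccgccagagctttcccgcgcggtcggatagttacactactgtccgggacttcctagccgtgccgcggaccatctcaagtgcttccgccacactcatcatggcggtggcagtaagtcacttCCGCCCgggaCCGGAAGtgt
NDUFB7: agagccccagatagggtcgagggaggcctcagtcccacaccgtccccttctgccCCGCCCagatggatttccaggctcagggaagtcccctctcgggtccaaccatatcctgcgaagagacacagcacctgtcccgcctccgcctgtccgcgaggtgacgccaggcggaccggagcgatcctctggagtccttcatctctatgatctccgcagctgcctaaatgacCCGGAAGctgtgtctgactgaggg
COX7A2L: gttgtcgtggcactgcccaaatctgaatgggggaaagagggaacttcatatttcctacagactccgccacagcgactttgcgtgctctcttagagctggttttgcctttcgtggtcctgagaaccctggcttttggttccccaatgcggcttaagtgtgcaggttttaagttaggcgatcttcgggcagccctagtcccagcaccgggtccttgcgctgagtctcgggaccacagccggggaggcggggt
SDHD: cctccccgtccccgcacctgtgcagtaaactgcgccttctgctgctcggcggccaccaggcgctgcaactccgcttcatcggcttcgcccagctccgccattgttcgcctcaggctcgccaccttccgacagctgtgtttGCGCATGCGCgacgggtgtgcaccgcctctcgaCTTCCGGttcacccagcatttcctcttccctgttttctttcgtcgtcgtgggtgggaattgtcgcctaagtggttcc

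Of the 80 nuclear members, 67 had a window of 300 bases (250 before and 50 after the start) in the RefSeq table, and motifs were searched on both strands of these windows. The NRF1 letters, those of a factor known for driving respiratory genes, stood in 16 members, or 23.9%, against 6.98% of 27305 symbols with a window. The ETS core stood in 21 (31.3% against 12.2%), the YY1 letters AAGATGGCG in 9 (13.4% against 2.14%) and the Sp1 box in 42 (62.7% against 48.3%). SDHD carries both NRF1 and ETS letters, while the printed 250 bases of COX7A2L carry none of them. COX7A2L is still among the 42 members with an Sp1 box, which does not lie within the printed bases. A match is a description of letters and not evidence that a factor binds.

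In the mitochondrial genome, neighbouring genes overlap, which bears on how their reads can be told apart. MT-ATP8 and MT-ATP6, both of the membrane part of complex V, share 46 bases at chrMT:8527-8572, printed with the start codon of MT-ATP6 and the stop codon of MT-ATP8 in capitals.
MT-ATP8/MT-ATP6 overlap: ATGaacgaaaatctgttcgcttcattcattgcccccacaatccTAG
MT-ATP8 is 207 bases long and MT-ND4L 297 bases, short beside paired reads of 150 bp. MT-ND4L and MT-ND4 share 7 bases, and their messages are known to stay joined. Counts of these short genes therefore depend on how shared reads were assigned, which is not given in the sources used here. The same holds for nuclear members with processed pseudogenes and for mitochondrial genes with nuclear copies.

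Recovered reads per library lay between 17815292 and 19466331. Of 14 endothelial markers, 12 had a mean of at least 10 in every table, with ENG the highest and CLDN5 and KDR near 0. Of 10 epithelial markers 6 did, led by KRT18, while CDH1 was near 0. Fibroblast markers reached that mean in 0 of 7 and leukocyte markers in 1 of 8 (CD68, with PTPRC near 0). The share of reads on 84 ribosomal protein genes, among the most abundant in the cell, ran from 9.37% to 22.2% and differed widely between replicates. At 6 weeks it was 17.2% to 19.4% in controls, 11.4% to 19.0% at 1 nM, 9.37% to 13.4% at 10 nM and 11.7% to 16.3% at 100 nM. Library 1 at 1 nM after 6 weeks had 11.4% and stood with the 10 and 100 nM libraries, apart from its own group. Of all 630 pairs of libraries, it and library 1 at 100 nM were the least unlike (chi-square of 4.34 per gene). That share went with the make-up of the mitochondrial reads, as given further on, and its part in the results below was not tested.

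Mitochondrially encoded subunits outweighed nuclear ones in every library. The 13 mitochondrial genes took 5.35% to 11.6% of all reads and the 80 nuclear genes 0.827% to 1.55%, so that mitochondrial reads were 4.97 to 8.5 times the nuclear ones (median 6.82, 36 libraries). Per kilobase of transcript, the highest nuclear member in the 6-week controls was COX4I1, a core-stabilising subunit of complex IV, at 22564 ± 8615 normalised reads (SD, n = 3). The highest mitochondrial one was MT-ATP6, the proton channel subunit of complex V, at 457692 ± 158949. MT-ND4, a proton-pumping subunit of complex I, followed at 368021 ± 102564, and MT-ND6 was the lowest at 4812 ± 1340.

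Within each complex, the nuclear member with the highest level per kilobase over the 6-week libraries was NDUFB7 in complex I, SDHA in II, UQCRQ in III, COX4I1 in IV and ATP5MF in V. In the 6-week controls they stood at 12780 ± 7249, 5612 ± 2482, 12016 ± 3472, 22564 ± 8615 and 14083 ± 4421 (SD, n = 3). These spreads overlap among NDUFB7, UQCRQ, COX4I1 and ATP5MF, and that of SDHA overlaps NDUFB7. The genes share the same 3 libraries, so overlap of these spreads does not decide their order. Within each control library COX4I1 stood highest of them and SDHA lowest, and ATP5MF lay above UQCRQ. The place of NDUFB7 varied, and the order was not tested. Complex I took 29.7% to 43.4% of the nuclear member reads of a library, complex V 18.5% to 29.6%, complex IV 16.3% to 21.7%, complex III 11.3% to 16.1% and complex II 3.79% to 9.02%.

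The balance of the genomes is a ratio of reads within a library, so it does not depend on how libraries are scaled. Its geometric mean per group ran from 6.02 to 7.23 over the 12 groups. At 48 h it was 6.10 in controls, 6.31 at 1 µM, 7.04 at 10 µM and 6.69 at 100 µM, and all groups overlapped. At 6 weeks it was 7.23 in controls, 6.62 at 1 nM, 6.02 at 10 nM and 6.02 at 100 nM. At 12 weeks it was 7.11 in controls, 6.33 at 1 nM, 6.79 at 10 nM and 7.16 at 100 nM, with overlap throughout.

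The 6-week controls stood at 7.36, 7.39 and 6.95 mitochondrial reads per nuclear read, and the 10 nM libraries at 6.22, 6.23 and 5.63. The 100 nM libraries stood at 5.46, 5.78 and 6.93, and the 1 nM libraries at 4.97, 7.69 and 7.60. All libraries at 10 and 100 nM lay below the lowest control, the last of them by a small margin. The difference in log2 ratio was -0.26 at either dose, beside a pooled replicate SD of 0.21 in that table, and -0.13 at 1 nM, where leaving out library 1 turned it to 0.08. Ratios of sums over chosen members were not tested, and 3 libraries against 3 could not go below p = 0.1 in an exact permutation test. In bulk RNA, fewer cells of a kind and less RNA per cell cannot be told apart.

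After 6 weeks at 10 nM, most subunit transcripts of both genomes stood below the controls as deposited. The median log2 difference was -0.98 over the 80 nuclear members (70 lower, 10 higher) and -1.36 over the 13 mitochondrial ones (12 lower, 1 higher), beside 0.05 over all 12201 genes tested. The 3 exposed libraries lay below all 3 controls for 55 nuclear and 11 mitochondrial members, where 29.8% of all genes did so, and above all controls for 3 nuclear members, where 30.6% of all genes did. No member and no gene passed limma at an adjusted p of 0.05, and the smallest adjusted p was 0.0953. Unadjusted p was under 0.05 for 60 of 93 members and 5365 genes, which is 44.0% of those tested.

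Other fits gave other counts for that comparison. With only the 6 libraries compared in the limma fit, 4742 genes passed (38.9%), among them 52 members: 44 nuclear and 7 mitochondrial lower, and COX7A2L higher. DESeq2 on recovered reads passed 3706 genes (30.4%) and 50 members, 43 nuclear and 7 mitochondrial, all lower, whereas edgeR's quasi-likelihood test passed 0 genes. The deposited scaling also matters. When libraries were instead scaled by their total reads, the median of all genes at 10 nM moved from 0.05 to 0.72, and the medians were -0.31 for nuclear and -0.69 for mitochondrial members. Under that scaling 28 nuclear members were higher and 52 lower, 4 mitochondrial higher and 9 lower. Both genomes lay below the median of all genes under either scaling. With the first principal component of the other genes as a covariate the medians were -0.22 and -0.040, and after quantile normalization -0.59 and -0.28. The mitochondrial median thus lay below the nuclear one as deposited and by total reads, and above it under these other settings. The order of the genomes was not tested.

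Markers of epithelial cells, the kind of the lung carcinoma parent of this line, stood below their controls at the same doses in most cases. At 6 weeks 5 of 6 tested epithelial markers stood lower and 1 higher at 10 nM (median -1.62) and at 100 nM (median -1.30). At either dose 4 lay below and 1 above all controls. Of all genes, 29.8% lay below and 30.6% above at 10 nM, and 24.4% and 22.9% at 100 nM. Their summed level was 3557 to 4555 CPM (recovered reads scaled to the library total) in controls, 1504 to 2538 at 10 nM, 1986 to 3193 at 100 nM and 1938 to 5763 at 1 nM. The defining marker CDH1 was at 0 throughout that table, and KRT7, KRT8 and KRT18, keratins, made up most of the sum. Of 12 endothelial markers 6 stood higher and 6 lower at 10 nM (median -0.09), and their summed level was 2123 to 2290 CPM against 2162 to 3229 in controls. At 6 weeks and 100 nM 5 stood higher and 7 lower (median -0.20). Endothelial medians were 0.01 and -0.18 at 48 h and 10 and 100 µM. At 12 weeks they were -0.16, -0.14 and -0.28 at 1, 10 and 100 nM, also below 0. Epithelial markers had medians of 0.32 and 0.42 at 48 h and 10 and 100 µM and of -0.56, -0.79 and -0.73 at 12 weeks and 1, 10 and 100 nM, the same sign as the subunit medians as deposited. No marker passed limma, and the part of these markers in the results was not tested.

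Complexes differed in how far their nuclear members lay from control at 6 weeks and 10 nM as deposited. Median log2 differences were -1.09 in complex I, -0.23 in complex II, -1.14 in complex III, -1.07 in complex IV and -0.77 in complex V. Mitochondrial members stood at -1.51 in complex I (7 genes), -1.36 in complex III (MT-CYTB alone), -0.65 in complex IV (3 genes) and -1.18 in complex V (2 genes). Each complex held members of both signs except mitochondrial complexes III, IV and V. Total-read scaling raises all values of that comparison, so which complex lies nearest to control depends on the scaling. Differences between complexes were not tested.

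Complex I takes electrons from NADH through a peripheral arm of iron-sulfur subunits and pumps protons in its membrane arm. Of its 36 nuclear members 32 were lower at 6 weeks and 10 nM, 27 of them below all controls (29.8% of all genes, 15.3% by total reads), and NDUFS1 alone lay above all controls (30.6%, or 53.0% by total reads). NDUFB7, an accessory subunit of the membrane arm, was at 11152, 5328 and 3880 normalised reads in controls and 1979, 932 and 1207 at 10 nM (log2 -2.23 ± 0.72 SE, adjusted p = 0.0953 by limma). At 100 nM it was at 1387, 1794 and 3143, and at 1 nM at 1152, 7326 and 11048. Every library at 10 and 100 nM lay below every control, and library 1 at 1 nM lay with them.

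NDUFA13, an accessory subunit, had the lowest difference of complex I, with 19777, 9919 and 7266 in controls and 3467, 1989 and 1914 at 10 nM (log2 -2.25 ± 0.73). NDUFA3, a small accessory subunit with the smallest p of the nuclear members at 100 nM, was at 4227, 3232 and 1908 in controls and 733, 911 and 1516 at that dose (log2 -1.56 ± 0.61, limma adjusted p = 0.272). Neither group of exposed libraries overlapped its controls. NDUFS1, the largest iron-sulfur subunit, went the other way, with 448, 618 and 614 in controls, 739, 938 and 764 at 10 nM and 788, 747 and 661 at 100 nM (log2 0.55 ± 0.27 at 10 nM). It lay above all controls at both doses under both scalings, as did COX7A2L and SDHD.

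Complex II oxidises succinate, with catalytic subunits SDHA and SDHB held by the anchors SDHC and SDHD. Its genes split at 6 weeks. SDHA was at 19205, 10037 and 8957 in controls and 8896, 7154 and 7484 at 10 nM, and SDHB at 2872, 3172 and 2352 against 2062, 1381 and 1538. SDHC was at 695, 908 and 759 against 1031, 777 and 841, and SDHD at 1261, 2129 and 1812 against 2428, 2579 and 2566. Both catalytic genes thus lay below all controls, SDHA narrowly, SDHC overlapped and SDHD lay above (log2 0.57 ± 0.29, limma adjusted p = 0.141). Scaled by total reads, SDHA (0.05) and SDHB (-0.10) overlapped their controls and SDHC lay above them (0.83). At 100 nM SDHC (984, 975, 938) and SDHD (2507, 2413, 2222) both lay above all controls.

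Complex III carries electrons from ubiquinone to cytochrome c. Of its 9 nuclear members 8 were lower at 10 nM and 5 lay below all controls, where 29.8% of all genes did. UQCRQ, a small subunit bound to cytochrome b, was at 6597, 5246 and 3622 in controls and 2682, 1518 and 1764 at 10 nM (log2 -1.37 ± 0.41). The core proteins went apart: UQCRC1 was at 11354, 9906 and 5914 against 3554, 2633 and 2848 (log2 -1.55 ± 0.47), while UQCRC2 was at 2745, 4066 and 3292 against 4117, 3875 and 3596 and overlapped (log2 0.21 ± 0.25). The ratio of UQCRC2 to UQCRC1 ran from 0.18 to 1.47 over the 36 libraries.

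Complex IV reduces oxygen. COX4I1 was at 22774, 15126 and 10567 in controls, 4991, 19296 and 25625 at 1 nM, 7087, 4190 and 4870 at 10 nM and 5299, 6587 and 9936 at 100 nM (log2 -1.55 ± 0.55 at 10 nM). All libraries at the upper doses lay below the controls. NDUFA4L2, a paralogue of NDUFA4 known to be induced by hypoxia, had the smallest p of the nuclear members, with 134, 78.9 and 43.5 in controls and 20.8, 9.58 and 10.7 at 10 nM (log2 -2.49 ± 0.71, limma adjusted p = 0.0953). NDUFA4 itself was at 3194, 2591 and 2725 against 2347, 1329 and 1714. NDUFA4L2 is a low gene, so its difference on the log2(signal + 1) scale is understated.

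COX7A2 and COX7A2L, paralogues of which the second is known to link complexes III and IV, stood on opposite sides of their controls. COX7A2 was at 4793, 4521 and 3227 in controls and 2805, 1938 and 1798 at 10 nM, and COX7A2L at 351, 724 and 809 against 1214, 1011 and 1211 (log2 0.95 ± 0.40, limma adjusted p = 0.1003). At 100 nM COX7A2L was at 1099, 1087 and 836, above all controls. Their ratio within a library, free of scaling, was 0.07, 0.16 and 0.25 in controls and between 0.43 and 0.67 at 10 nM. It ran from 0.05 to 0.79 over all 36 libraries and was 0.05 to 0.69 at 48 h, so libraries of every time spanned most of that range.

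Complex V makes ATP, with a catalytic F1 head and a membrane ring and stator. Of 17 nuclear members 15 were lower at 10 nM after 6 weeks and 11 lay below all controls, beside 29.8% of all genes. ATP5MF, a membrane subunit, was at 5860, 4345 and 3083 in controls and 1897, 1078 and 1062 at 10 nM (log2 -1.72 ± 0.54). ATP5F1D, the delta subunit of the central stalk, lay lowest, at 12097, 6024 and 4031 against 2109, 1013 and 1278 (log2 -2.25 ± 0.75). ATP5PB, a stator subunit, was highest of the complex at a log2 difference of 0.23 and overlapped. ATP5MC3 and ATP5MC1 encode the same ring protein, and the ratio of their reads ran from 0.40 to 2.77 over the 36 libraries.

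Among the mitochondrially encoded genes at 6 weeks, MT-ND4 had the smallest p, with 637791, 526490 and 357121 normalised reads in controls and 208441, 114868 and 120620 at 10 nM (log2 -1.79 ± 0.64, limma adjusted p = 0.0953). At 100 nM it was at 129405, 171986 and 307351, and at 1 nM at 117506, 585146 and 660609. Libraries at 10 and 100 nM did not overlap the controls. MT-ATP6 was at 426743, 296451 and 211869 against 134981, 66345 and 79392 at 10 nM (log2 -1.75 ± 0.63), and MT-CYTB, cytochrome b, at 198834, 214007 and 113832 against 89617, 56037 and 56927 (log2 -1.36 ± 0.56).

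MT-COX2 carries the copper centre that accepts electrons, and was at 297238, 230435 and 165405 against 112167, 62075 and 72313 (log2 -1.50 ± 0.57). MT-COX1, the catalytic subunit of complex IV, differed less, at 444379, 323333 and 309389 against 283596, 236723 and 235034 (log2 -0.50 ± 0.39). MT-ND4L was level, at 8787, 9697 and 7497 against 9318, 9387 and 8804 (log2 0.09 ± 0.23). Scaled by total reads, MT-COX1 stood at 0.17 and MT-ND4L at 0.76, both above all controls, so that MT-COX1 changed sign with the scaling and MT-ND4L did not. MT-ATP6, MT-COX2, MT-CYTB, MT-ND1, MT-ND2, MT-ND3 and MT-ND4 lay below all controls under both scalings, as did 32 of the 55 nuclear members. Under total-read scaling 15.3% of all genes lay below all controls and 53.0% above.

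Within the mitochondrial reads, the make-up varied between libraries along with the ribosomal protein share. MT-COX1 took 11.1% to 31.7% of them and MT-ND4 14% to 28.3%. Over the 36 libraries, the MT-COX1 share went against the ribosomal protein share with Pearson's r = -0.88 and Spearman's rho = -0.88, and MT-ND4L with r = -0.92 and rho = -0.92. MT-ND4 went with it (r = 0.84, rho = 0.89), as did MT-ND1 (r = 0.73, rho = 0.73). Permutation p was 1e-05 for r of MT-COX1, MT-ND4L and MT-ND4, the smallest that 100000 permutations can give, and 1.86e-05 after Benjamini-Hochberg adjustment over 13 relations. Without the 2 libraries farthest from the median share, r was -0.87, -0.92 and 0.84. Within the tables of 48 h, 6 and 12 weeks MT-COX1 had r = -0.98, -0.99 and -0.93. Libraries of a group share a treatment and both measures share the library's reads.

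**Figure D1:**
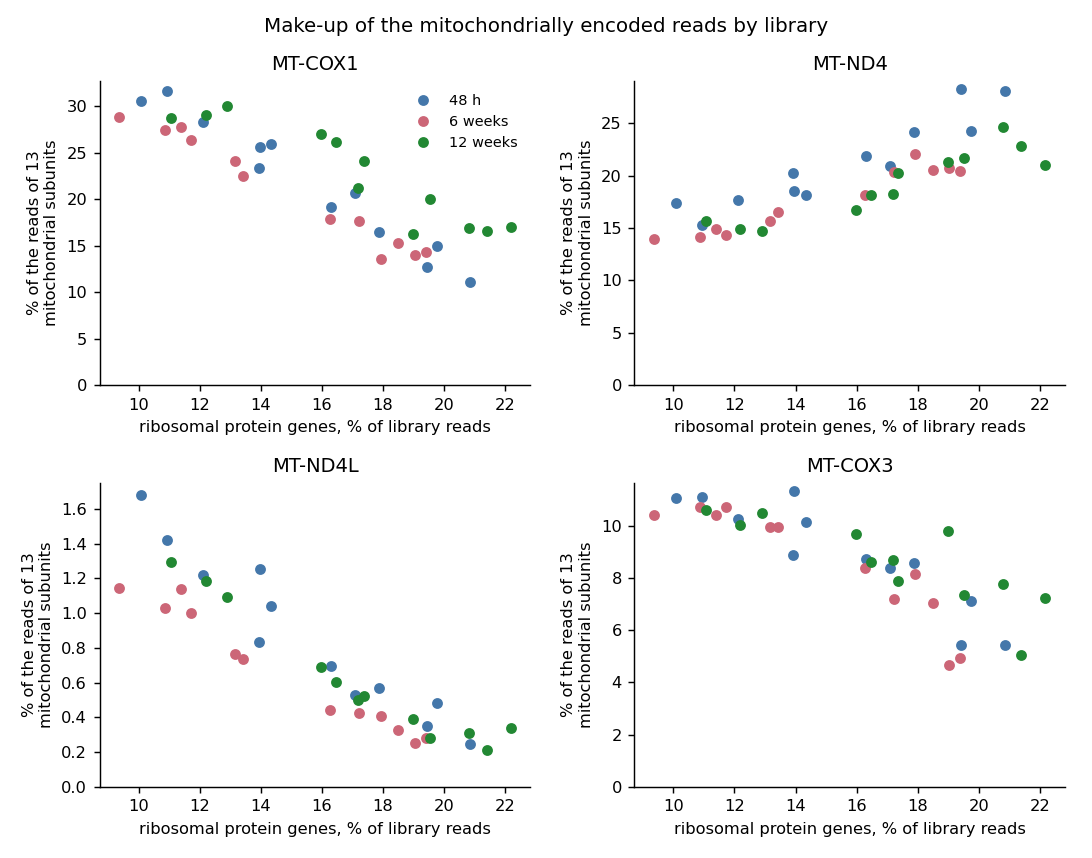
Share (%) of the reads of the 13 mitochondrial subunits taken by MT-COX1, MT-ND4, MT-ND4L and MT-COX3 against the share of library reads on ribosomal protein genes, 1 point per library, coloured by exposure time. MT-COX1 spanned 11.1% to 31.7% and MT-ND4 14% to 28.3% over 36 libraries.

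At 6 weeks and 100 nM the pattern was like that at 10 nM, which shares its controls, with smaller medians of -0.62 for nuclear members (65 lower, 15 higher) and -1.01 for mitochondrial ones (13 lower). Exposed libraries lay below all controls for 40 nuclear and 6 mitochondrial members (24.4% of all genes), and above for COX7A2L, NDUFS1, SDHC and SDHD (22.9%, or 43.5% by total reads, under which these 4 also lay above). Complex II again stood nearest to control as deposited, at -0.08, beside -0.67, -0.76, -0.70 and -0.39 for nuclear complexes I, III, IV and V. That nearness depends on the scaling. No gene passed limma (smallest adjusted p 0.272, with 19 members and 1483 genes, 12.2%, at an unadjusted p under 0.05), nor edgeR or DESeq2. Scaled by total reads the nuclear median was -0.06 (38 higher, 42 lower) and the mitochondrial one -0.46, beside 0.59 for all genes. With the covariate the medians were -0.061 and -0.019, and after quantile normalization -0.26 and -0.15, so that the mitochondrial median lay above the nuclear one under these settings.

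At 1 nM after 6 weeks the medians were -0.23 for nuclear and -0.29 for mitochondrial members, and ATP5MG, a membrane subunit of complex V, alone lay below all controls (0.557% of all genes did). Both signs rest on library 1 of that group: without it they were 0.12 and 0.31. NDUFA8, a complex I accessory subunit, had the smallest nuclear p, at 2150, 2220 and 2017 in controls and 1407, 1444 and 2146 at 1 nM. MT-CYTB had the smallest mitochondrial p, at 49393, 201472 and 194420 at 1 nM, where the first library alone lay below the controls. limma passed 0 genes, with 31 genes (0.254%) and no member at an unadjusted p under 0.05, edgeR passed 0 and DESeq2 2 genes, none a member.

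After 48 h at 10 and 100 µM, most subunits stood higher than in controls as the deposited values are scaled. The nuclear median was 0.33 at 10 µM (62 higher, 18 lower) and 0.37 at 100 µM (64 higher, 16 lower), and all 13 mitochondrial genes were higher at both doses (medians 0.60 and 0.57). Scaled by total reads, the nuclear medians were 0.01 and 0.07 and the mitochondrial ones 0.28 and 0.27, while all genes stood at -0.30 and -0.27. Under that scaling 10 mitochondrial genes were higher and 3 lower at 10 µM, and 7 higher and 6 lower at 100 µM. At 1 µM the medians were -0.10 and -0.04, and both turned sign without library 2 of that group (0.10 and 0.29) or control library 3 (0.04 and 0.18). At 100 µM the medians were 0.62 and 1.02 without exposed library 3, 0.24 and 0.28 without exposed library 2, and 0.22 and 0.35 without exposed library 1, and the nuclear one was 0.23 without control library 2. With the covariate they were 0.02 and 0.12 at 10 µM and 0.10 and 0.11 at 100 µM. After quantile normalization they were 0.11 and 0.15 at 10 µM and 0.23 and 0.008 at 100 µM. Nuclear complexes I to V stood at 0.41, 0.28, 0.20, 0.44 and 0.35 at 100 µM as deposited.

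A few complex V genes went against that direction at 48 h. ATP5F1E, the epsilon subunit of the F1 stalk, was at 4383, 3665 and 5116 in controls and 2745, 2987 and 2018 at 10 µM (log2 -0.77 ± 0.28, limma adjusted p = 0.960). At 100 µM it was at 3345, 1938 and 3557. ATP5MC3, a ring subunit, was at 2671, 2460 and 2830 in controls, 1676, 2139 and 1172 at 10 µM and 1970, 1346 and 2106 at 100 µM. Neither gene overlapped its controls at either dose, and at 100 µM this held under both scalings (10.6% of all genes lay below by total reads).

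At 10 µM 5 nuclear members lay below all controls, where 3.52% of all genes did. At 100 µM 3 lay below (6.46%) and 3 above (4.32%). limma passed no gene at 48 h, with 6, 345 and 244 genes at an unadjusted p under 0.05 for 1, 10 and 100 µM, of which 0, 3 and 0 were members (0.0490%, 2.82% and 1.99% of all genes). DESeq2 passed 1, 1 and 0 genes and edgeR 0, and no member in any. Library 3 at 10 µM carried much of that dose's height: without it the nuclear median was -0.06 and the mitochondrial 0.02. Without library 2 of that group they were 0.77 and 1.41, and without control library 2 0.17 and 0.39. Its ribosomal protein share was 20.9%, beside 17.9% and 10.1% in the other libraries of its group.

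At 12 weeks the medians were below 0 at every dose as deposited, at -0.11, -0.56 and -0.23 for nuclear members and -0.48, -0.62 and -0.27 for mitochondrial ones at 1, 10 and 100 nM. Scaled by total reads the nuclear medians were 0.11, -0.18 and 0.06 and the mitochondrial ones -0.25, -0.24 and 0.02. Counts lower against higher as deposited were 57 and 23, 73 and 7, and 64 and 16 for nuclear genes. Nuclear complex II stood nearest to control again at 10 nM as deposited, at -0.15 beside -0.66 to -0.56 in the others. That nearness, too, depends on the scaling. Leaving out library 3 at 100 nM turned both medians of that dose to 0.06 and 0.12, control library 2 turned the mitochondrial one to 0.04, and library 1 at 1 nM turned that dose's nuclear one to 0.02. At 100 nM the medians were -0.52 and -0.60 without exposed library 2 and -0.44 and -0.58 without control library 3, and the nuclear one was -0.09 without control library 2. At 10 nM the nuclear median ran from -0.93 without exposed library 1 to -0.30 without exposed library 3. The mitochondrial one ran from -1.21 without exposed library 1 to -0.28 without control library 2, and was -1.01 without control library 3. At 1 nM the mitochondrial median was -0.89 without control library 3, -0.09 without control library 2 and -0.17 without exposed library 1. With the covariate the nuclear medians were 0.06, -0.085 and 0.12 and the mitochondrial ones -0.12, 0.07 and 0.37 at 1, 10 and 100 nM. The exposed groups overlapped the controls for all but 3 members.

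ATP5F1D at 10 nM had the largest 12-week difference of the nuclear members, -1.46 ± 0.77, and MT-ND4 stood at -1.08 ± 0.70, both with a limma adjusted p of 0.655. ATP5PB at 1 nM was at 3614, 3657 and 4582 against 3591, 1530 and 2834 in controls, above all of them (log2 0.65 ± 0.34), and SDHC lay above too (1.66% of all genes did). MT-ND4L was at 6001, 6136 and 7062 in controls, 7589, 9096 and 9668 at 10 nM and 8390, 8958 and 10681 at 100 nM. It lay above all controls at both doses as deposited (2.06% and 2.07% of all genes), the only mitochondrial gene to do so, and overlapped them at both doses when scaled by total reads, as SDHC did at 1 nM. COX5A, a complex IV subunit, had the smallest nuclear p at 100 nM (log2 -0.57) and overlapped.

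At 12 weeks limma passed no gene, with 24, 168 and 287 genes (0.195%, 1.37% and 2.33%) at an unadjusted p under 0.05 at 1, 10 and 100 nM and no member among them. DESeq2 passed 0, 2 and 1 genes and edgeR 0. The difference between the 12-week and 6-week effects was tested over 24 libraries and 12037 genes and passed none at any dose, with 25, 42 and 68 genes (0.208%, 0.349% and 0.565%) and no member at an unadjusted p under 0.05. Its median was 0.06 for nuclear and -0.09 for mitochondrial members at 1 nM, 0.45 and 0.59 at 10 nM and 0.34 and 0.59 at 100 nM. The medians at the upper doses rest much on single libraries. Without 12-week library 1 at 10 nM they were 0.06 and 0.15 at that dose, and without 12-week library 2 at 100 nM they were 0.11 and 0.35. Leaving out the third library of the 12-week exposed group instead gave 0.68 for the nuclear members at 10 nM and 0.60 and 1.14 at 100 nM. Without 12-week control library 3 the 4 medians were 0.21, 0.34, 0.15 and 0.38, and without control library 2 the mitochondrial ones were 0.92 and 0.98. At 10 nM, leaving out a 6-week library gave 0.24 for the nuclear members (exposed library 2) and 0.39 for the mitochondrial ones (control library 1), and at 100 nM 0.96 for the mitochondrial ones (exposed library 3). Scaled by total reads they were 0.16 and 0.30 at 10 nM and 0.08 and 0.33 at 100 nM, while all genes stood at -0.29 and -0.27. With the covariate they were 0.04 and 0.06, and 0.11 and 0.32. Single members lay between -0.64 (COX7A2L) and 1.26 (NDUFA4L2) at 10 nM and between -0.35 (COX7A2L) and 1.04 (MT-ATP8) at 100 nM. At 1 nM they lay between -1.20 (MT-ND6) and 0.78 (ATP5PB).

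Across the 80 nuclear members, the log2 difference with its sign went with the GC content of the longest transcript listed for the gene. That transcript can differ from the coding one expressed here. At 6 weeks Pearson's r between the log2 difference and GC content was -0.71 at 10 nM and -0.74 at 100 nM, so that members of higher GC lay lower. At 48 h and 100 µM r was 0.61, the opposite sign, and at 12 weeks and 10 nM -0.66. These are descriptions across genes, which are not independent replicates and share the same 6 libraries. Members ran from 35.0% to 65.0% GC with a median of 47.7%, all tested genes had a median of 48.4%, and NDUFB7 had 65.0%, NDUFA13 62.0%, SDHD 41.0% and NDUFS1 42.1%. With the log length of the coding transcript r was 0.32 at 6 weeks and 10 nM. Whether GC content bears on the differences was not tested.

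Genes that build or serve the chain were read from lists of their own. At 6 weeks and 10 nM as deposited, 36 of 49 tested assembly factors were lower and 13 higher (median -0.32). Of these, 24 lay below all controls (29.8% of all genes) and 5 above (30.6%). Of 28 genes for mitochondrial transcription and genome maintenance, 17 were higher and 11 lower (median 0.29). Of 7 regulators of mitochondrial biogenesis, 5 were higher and 2 lower (median 0.58), and of 14 carriers, coupling and supercomplex genes 5 were higher and 9 lower (median -0.21). None passed limma in any comparison. Beside them, all genes stood at 0.05 as deposited and at 0.72 when scaled by total reads. Summed carrier genes were at 2351 to 2629 CPM at 10 nM against 1701 to 2202 in controls. Assembly factors were at 1751 to 1942 against 1824 to 2085. Transcription and maintenance genes were at 1227 to 1307 against 1106 to 1212, and biogenesis regulators at 260 to 314 against 158 to 196. The direction of the carrier genes thus depends on the scaling.

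MT-ND6, a complex I subunit and the only protein gene on the opposite strand of the mitochondrial genome, stood far apart in 2 libraries of different times. It had 216 reads in library 3 at 1 µM after 48 h and 133 in library 3 at 1 nM after 12 weeks, where the other 34 libraries had 890 to 2286 (median 1589). The lowest of these was 4.12 times the higher of the pair. Of 18048 genes, MT-ND6 alone lay more than 2-fold below all other libraries in both, and it was singled out after its values were seen. It had the smallest p of the mitochondrial members in both groups, with log2 differences of -0.94 and -1.24 that shrank to -0.18 and -0.14 without those libraries. Whether strand was used in counting is not given in the sources used here, so its reads and reads antisense to it cannot be told apart.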

How the data were processed

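Messenger RNA of 36 libraries was measured in 3 tables, 1 per exposure time. Each deposited value is a normalised signal for 1 gene: the authors scaled read counts by a library size factor. The build GRCh38.p14 and the tools Bowtie2, HISAT and DESeq2 are named, with no versions or roles, per the submitters' processing notes. Counting tool and strand setting: not given in the sources used here. Within a library all values were multiples of 1 step (0.737 to 1.85), so whole reads could be recovered for 100% of values, to within 0.01 of a read. Positions come from RefSeq of GRCh38.p14, and transcript length and GC content from GENCODE transcripts. Length is the median over coding transcripts of a gene, and GC content is that of its longest transcript of any type.

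Members, lists and comparisons were chosen with earlier results of these data known. Genes averaging 10 or more entered the tests (12233, 12201 and 12304 genes at 48 h, 6 and 12 weeks). Tests used R 4.3.3 and limma 3.58.1 with a prior variance that follows intensity, on log2 of the signal plus 1, which understates the change of low genes, over the 12 libraries of a table. They were two-sided, with Benjamini-Hochberg adjustment over all genes and a threshold of 0.05, and members were read out of that fit. A group did not overlap its controls where all 3 libraries lay on 1 side of all 3 controls. The script was tested on simulated data with a small, even spread between replicates. That does not show how the fits behave at the wider spread of these libraries. Alternatives were pseudocounts of 0.1 or 10, dropping the filter or raising it to 50, quantile normalization, a replicate block, only the groups compared, a covariate (the first component of genes that are neither members nor ribosomal proteins), edgeR 4.0.16 and DESeq2 1.42.0 on recovered reads, and each library left out. Sums were also taken without MT-ATP8 and MT-ND4L and as equally weighted log2 means. Scaling by total reads was chosen after seeing the data.

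The genes given library by library were, at 6 weeks, the member most abundant per length in each complex and genome, in any comparison the nuclear and the mitochondrial member with the smallest unadjusted p, the 4 SDH genes, the mitochondrial genes and the isoform sets. NDUFA13, NDUFS1, UQCRC1, UQCRC2 and ATP5F1D were added after their values were seen. Same-numbered libraries deviated together in some pairs of groups and not in others. The correlation of their deviations ran from -0.89 to 0.89 at 48 h. At 6 weeks it was 0.66, 0.55 and 0.34 between controls and 10 nM for replicates 1, 2 and 3. Between controls and 100 nM it was -0.62, -0.31 and -0.57. None of the 630 pairs of libraries, 36 of them within a group, agreed within sampling noise (smallest chi-square 4.34 per gene). Replicates are labelled biological, and p-values measure the spread between these libraries.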

Additional observations from a re-analysis of the deposited data

Results flagged for a closer look

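UQCRC2, a core protein of complex III, stood on opposite sides of its control mean at the same dose after 6 and 12 weeks as deposited. At 10 nM every library lay above the control mean after 6 weeks, by 0.11 to 0.31 on the log2 scale, and below it after 12 weeks, by -0.16 to -0.05. The mean difference at 12 weeks minus that at 6 weeks was -0.31. Total-read scaling moved the median of all genes at 12 weeks and 10 nM from 0.02 to 0.40. That shift is larger than the 12-week differences of UQCRC2, so its side at 12 weeks rests on the deposited scaling. It was marked because all 3 libraries of either time lay on 1 side, which tests nothing. The limma fit of that difference gave -0.31 ± 0.32 SE with an adjusted p of 0.906, and the exposed and control libraries overlapped at either time.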

How the results depend on the processing

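The limma count of 0 passing genes held for every comparison with either pseudocount, either filter, quantile normalization, the covariate, edgeR and total-read scaling. DESeq2 on recovered reads passed 1 gene at 48 h at 1 and at 10 µM, 2 at 6 weeks and 1 nM, 3706 with 50 members at 6 weeks and 10 nM, 2 and 1 at 12 weeks at 10 and 100 nM, and 2, 1 and 1 for the differences between times. With only the groups compared, 4742 genes and 52 members passed at 6 weeks and 10 nM. The medians of nuclear and mitochondrial members at 6 weeks were -0.22 and -0.040 at 10 nM and -0.061 and -0.019 at 100 nM with the first component as a covariate, which also moved the nuclear median at 12 weeks and 10 nM to -0.085. Quantile normalization gave mitochondrial medians of -0.28 and -0.15 at 10 and 100 nM after 6 weeks. Total-read scaling gave -0.31 and -0.69 at 10 nM and -0.064 for the nuclear members at 100 nM. The causes were not tested.

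Leaving out each library in turn gave 0 to 1 passing genes and a log2 ratio of the genomes of -0.23 to 0.081 at 6 weeks and 1 nM, where MT-CYTB turned to 0.23 without 1 nM library 1. At 6 weeks and 10 nM the medians ran from -1.16 to -0.81 and from -1.65 to -1.19, and at 100 nM from -0.78 to -0.47 and from -1.31 to -0.79. Of 33 medians and ratios, 14 changed sign on leaving out a single library, none of them at 6 weeks and 10 or 100 nM. Same-numbered libraries deviated together in some pairs of groups and in opposite directions in others. A fit with the replicate number as a block over all groups fitted also passed 0 genes. Its medians were -0.98 and -1.36 at 6 weeks and 10 nM. Depth was at least 17815292 reads in a library, and the least unlike pair of libraries within a group still differed by a chi-square of 13.8 per gene (4.34 between groups), so the spread between replicates rather than counting limits these comparisons. With 3 libraries against 3, an exact permutation test cannot go below p = 0.1.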
